A study of Rattus norvegicus with 3 samples.

Results

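Chondroitin sulfate proteoglycan core proteins are the protein backbones that carry chondroitin sulfate sugar chains in the extracellular matrix and on the cell surface. The 7 genes described here (Acan, Bcan, Ncan, Vcan, Ptprz1, Cspg4 and Cspg5) were taken by symbol from the 17328 genes of a single-nucleus RNA data set of injured rat spinal cord, and all 7 had counts in each of its 3 libraries. Each count is a unique molecular identifier (UMI), which stands for 1 captured RNA molecule. The libraries were an HGF scaffold library, from cord given a scaffold releasing HGF (hepatocyte growth factor), a scaffold library, from cord given a scaffold whose label names no HGF, and an untreated library, labelled as having no treatment. All 3 came from rats of the strain labelled SDrat, with the genotype WT, aged 17 weeks. Tissue was taken at the lesion epicenter 49 days after the injury, which was 7 days after implantation in the implanted groups. The number of animals behind a library is not in the labels, nor is the material of the scaffold, its HGF dose, the kind of injury, or whether the untreated animals had an operation at the time of implantation. With 1 library per group, the scaffold, the operation, the animals and the preparation of the library cannot be told apart, and no test between groups was possible. Every interval below is a 95% interval that covers counting error only.

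Aggrecan (Acan), brevican (Bcan), neurocan (Ncan) and versican (Vcan) form the lectican family. Lecticans bind hyaluronan at one end and tenascins at the other, and link proteins such as Hapln1 fix them to hyaluronan. Aggrecan is the main proteoglycan of cartilage and a component of the perineuronal nets that surround certain neurons, and brevican and neurocan are matrix proteins of brain and spinal cord. Versican is found in many tissues, including the matrix made by fibroblasts. Ptprz1 encodes a receptor tyrosine phosphatase whose extracellular part is also released as phosphacan, Cspg4 encodes NG2, a membrane protein of oligodendrocyte precursors and pericytes, and Cspg5 encodes neuroglycan C, a membrane protein of neural cells. After spinal cord injury, chondroitin sulfate proteoglycans gather in and around the scar, where their chains inhibit the growth of axons.

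The gene whose level differed most between libraries was Acan, and the link protein gene Hapln1 was lower in the same libraries. The RefSeq promoter windows of these 2 genes, from 250 bases before to 50 bases after the annotated start on rat build GRCr8, are therefore shown. Both lie on the forward strand, at chr1:142390701-142391000 for Acan and chr2:22366717-22367016 for Hapln1, and capitals mark GC boxes in Acan and a SOX core motif in Hapln1.
Acan: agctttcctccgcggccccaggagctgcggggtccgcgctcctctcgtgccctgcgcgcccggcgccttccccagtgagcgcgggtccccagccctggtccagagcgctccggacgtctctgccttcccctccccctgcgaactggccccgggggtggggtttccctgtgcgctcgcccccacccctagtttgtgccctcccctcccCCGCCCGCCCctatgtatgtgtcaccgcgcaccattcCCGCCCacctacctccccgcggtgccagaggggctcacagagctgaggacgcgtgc
Hapln1: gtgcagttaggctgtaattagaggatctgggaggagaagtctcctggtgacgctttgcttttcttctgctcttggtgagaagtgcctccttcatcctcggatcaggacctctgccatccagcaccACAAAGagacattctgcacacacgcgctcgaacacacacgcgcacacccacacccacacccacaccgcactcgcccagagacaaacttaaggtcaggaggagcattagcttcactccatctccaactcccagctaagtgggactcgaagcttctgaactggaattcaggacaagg
The Acan window held 3 GC boxes (GGGCGG, read as CCGCCC on the printed strand, 2 of them overlapping), and 33.1% of 33469 RefSeq promoter windows of that length held at least 1. It held no SOX core motif in either spelling, ACAAAG or ACAATG, on either strand. The Hapln1 window held 1 ACAAAG, which 18.8% of all windows held on either strand, and no GC box. A match is a run of letters and not a bound site. Of the 7 core protein genes, 5 had a promoter window in the table; Ptprz1 and Cspg5 were not matched.

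The HGF scaffold, scaffold and untreated libraries held 906, 2168 and 2248 nuclei after 4 untreated nuclei with over 5% mitochondrial UMIs were left out. Their UMI totals as deposited were 1450757, 5791715 and 5953189, so the HGF scaffold library was the shallowest and its values carry the widest intervals. Between 0 and 3 cell barcodes were shared by any pair of libraries. Clustering without the 7 genes gave 21 clusters, of which 14 were named after markers as X-like; levels below are in CPM, the share of a gene in all UMIs summed over the nuclei of a class in a library. In the HGF scaffold, scaffold and untreated libraries there were 40, 96 and 131 OPC-like nuclei (oligodendrocyte precursor cells), 19, 154 and 154 astrocyte-like nuclei, and 64, 133 and 297 fibroblast-like nuclei. The fibroblast-like cluster was led by Col2a1, Tnc, Tnn and Postn and held 4 chondrocyte markers beside 7 fibroblast markers among its 100 leading genes. Neuron-like nuclei numbered 33, 194 and 158. Myeloid-like nuclei numbered 284, 373 and 223, but came from different clusters: a cluster led by Arg1 and Itgam gave 248, 267 and 15 of them, and a cluster led by Alpk3, Slc2a5 and Blnk gave 36, 106 and 208. Nuclei that held at least 3 markers of each of at least 4 lineages, called mixed nuclei here, numbered 87, 633 and 544. They held 29.4%, 57.9% and 54.3% of the UMIs of the HGF scaffold, scaffold and untreated libraries. A deeper nucleus meets this rule more easily, so values without mixed nuclei also leave out many deep nuclei.

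**Figure D1:**
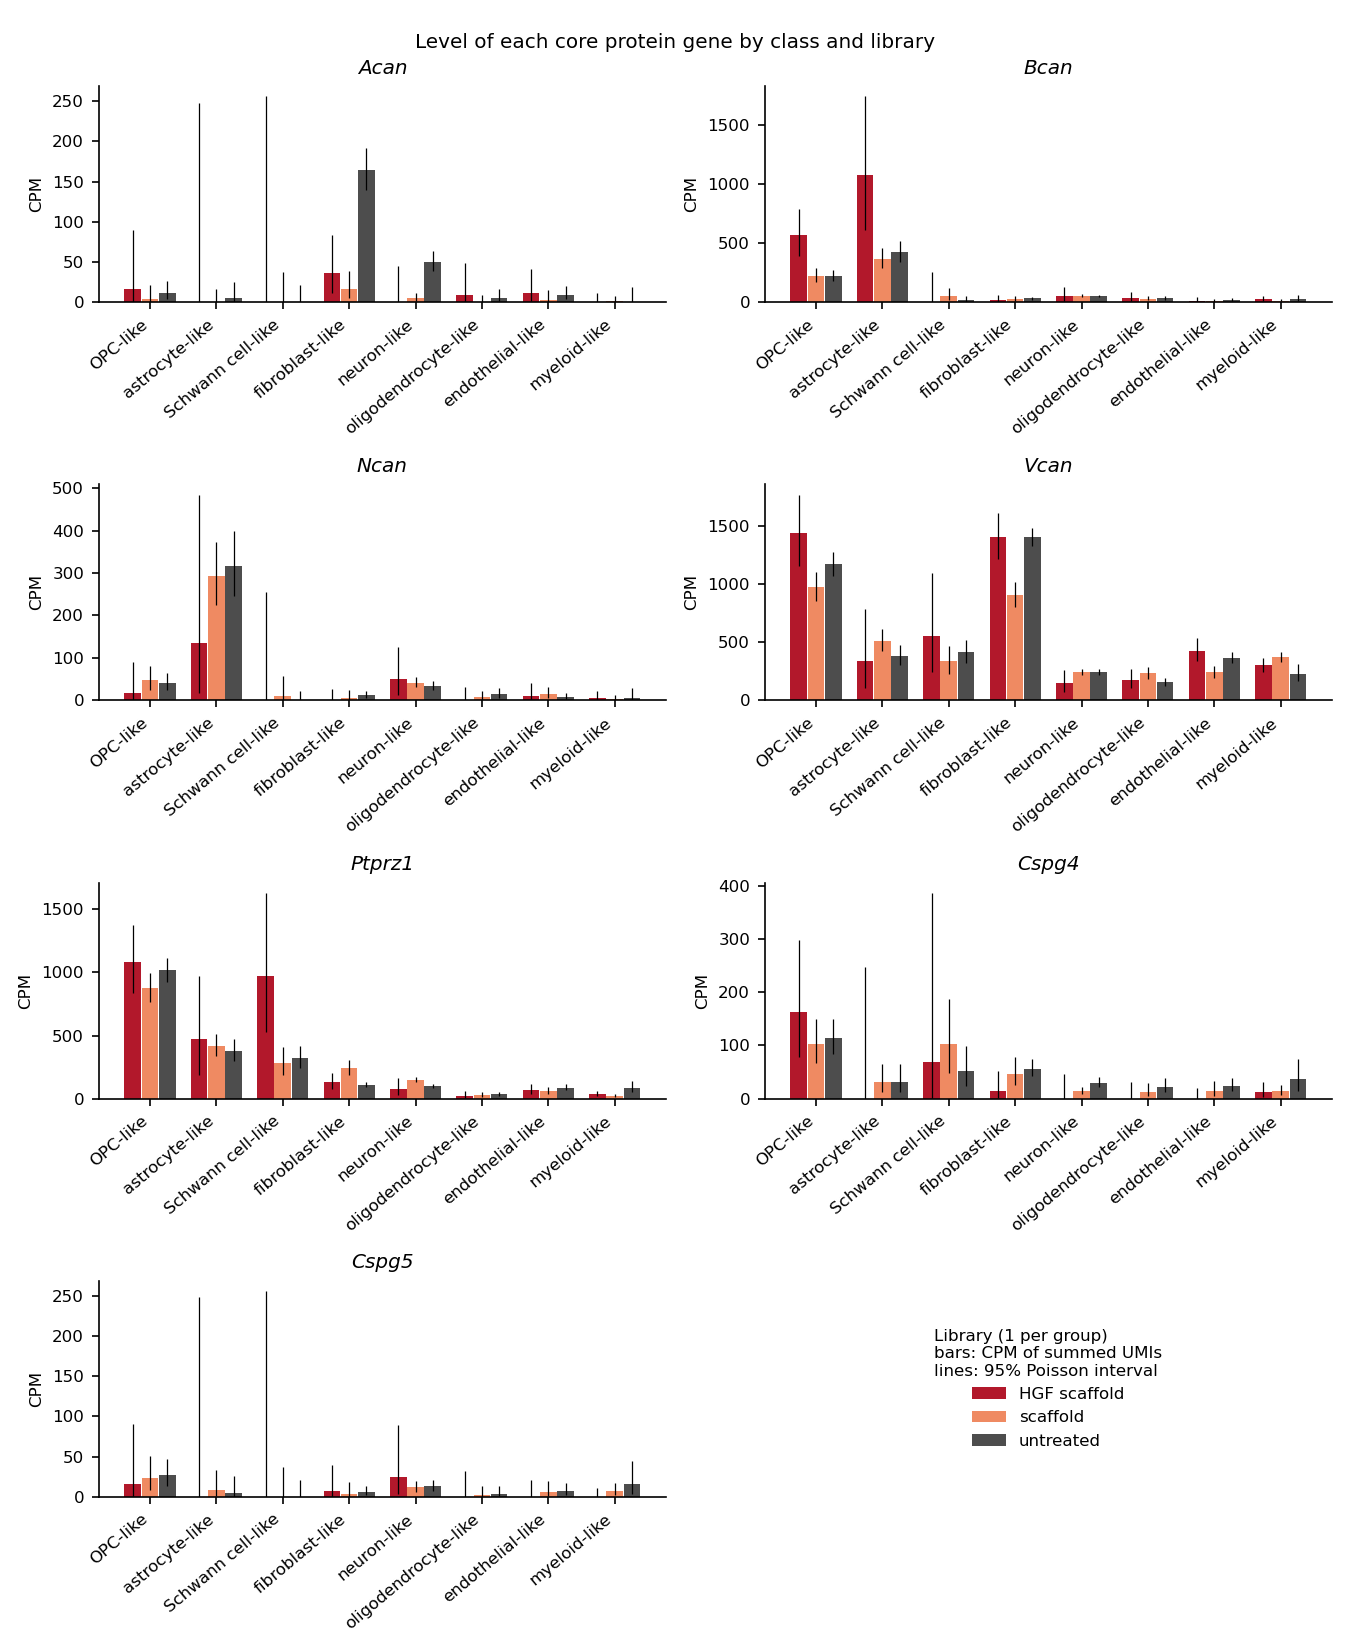
Level of each core protein gene (CPM, vertical axis, scaled separately for each gene) in 8 classes for the HGF scaffold, scaffold and untreated libraries; bars are CPM of summed UMIs and lines are 95% Poisson intervals. Vcan was high in OPC-like and fibroblast-like nuclei, Ptprz1 in OPC-like nuclei, Bcan in astrocyte-like and OPC-like nuclei, Ncan in astrocyte-like nuclei, and Acan in fibroblast-like nuclei of the untreated library.

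Acan was found almost entirely in the untreated library. It had 10, 17 and 257 UMIs over all nuclei of the HGF scaffold, scaffold and untreated libraries, which is 6.89, 2.94 and 43.2 CPM. The intervals were 3.31 to 12.7, 1.71 to 4.70 and 38.1 to 48.8 CPM. The 2 implanted libraries were both low, and neither interval reached that of the untreated library. Scaffold over untreated was 0.0679 (0.039 to 0.111), or 14.7-fold lower, and HGF scaffold over untreated was 0.160 (0.0756 to 0.298), or 6.27-fold lower. HGF scaffold over scaffold was 2.35 (0.961 to 5.43), an interval that includes 1. Sums over all nuclei also follow how many nuclei of each class a library holds, so the class values are given next.

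Fibroblast-like nuclei held 59.1% of the Acan UMIs of the untreated library. Acan had 5, 5 and 152 UMIs there in the HGF scaffold, scaffold and untreated libraries, at 36, 16.7 and 164 CPM, with intervals of 11.7 to 84.0, 5.44 to 39.1 and 139 to 192. In the untreated library Acan was found in 52 of 297 nuclei (17.5%). The share was 2 of 64 (3.12%) in the HGF scaffold library and 3 of 133 (2.26%) in the scaffold library. The untreated UMIs were unevenly spread, with 84 of the 152 in 8 nuclei that held at least 5 each. Median UMIs per fibroblast-like nucleus were 1203.5, 1329 and 1465, and at a common depth of 500 UMIs per nucleus the expected shares were 1.04%, 1.02% and 6.65%. Acan was not seen in the myeloid-like cluster led by Alpk3, a type that should lack it: 0 of 36, 0 of 106 and 0 of 208 nuclei, which by a floor of 3 counts allows shares of up to 8.33%, 2.83% and 1.44%. Within fibroblast-like nuclei the ratio of scaffold over untreated was 0.102 (0.0327 to 0.243) and HGF scaffold over untreated was 0.220 (0.0703 to 0.524). Without mixed nuclei the levels were 15.1, 14.7 and 254 CPM, from only 1, 2 and 99 UMIs. With mixed nuclei kept, only 5 UMIs stand behind each implanted value. With nuclei assigned by a marker score the log2 ratio of HGF scaffold over untreated was -0.46 in place of -2.19, short of 2-fold.

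The Acan of the untreated fibroblast-like nuclei was accompanied by RNA of cartilage genes. The 12 cartilage genes in the files (among them Col2a1 and Col9a1, fibrillar and associated collagens of cartilage, and Comp, a cartilage matrix protein) had 4, 20 and 744 UMIs in fibroblast-like nuclei of the HGF scaffold, scaffold and untreated libraries, or 28.8, 67.0 and 803 CPM. Of the untreated UMIs, 660 (88.7%) were in the 52 nuclei with Acan. A single nucleus of 7399 UMIs held 380 of them, with 118 of Col2a1 and 31 UMIs of Acan. Col2a1 had 218 UMIs in only 8 untreated fibroblast-like nuclei, 216 of them in 6 nuclei with Acan, whereas Comp had 175 UMIs in 52 nuclei. Hapln1 followed the same nuclei: it had 0, 0 and 45 UMIs in fibroblast-like nuclei of the HGF scaffold, scaffold and untreated libraries, and 41 of the 45 were in 7 nuclei with Acan. Sox9, a transcription factor of cartilage and astrocytes, had 0, 3 and 34 UMIs, 23 of the 34 in 9 nuclei with Acan.

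Most untreated fibroblast-like nuclei with Acan nevertheless had few or no cartilage genes. Of the 52, only 11 held at least 2 cartilage genes, and the nuclei with fewer than 2 held 90 of the 152 Acan UMIs, at 117 CPM. Without nuclei that held at least 2 cartilage genes, the log2 ratio of Acan, scaffold over untreated, was -2.96 in place of -3.88 over all nuclei and -2.78 in place of -3.29 in fibroblast-like nuclei. Acan was therefore still at least 2-fold lower in the scaffold library in both. The source of the cartilage RNA was not tested.

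**Figure D2:**
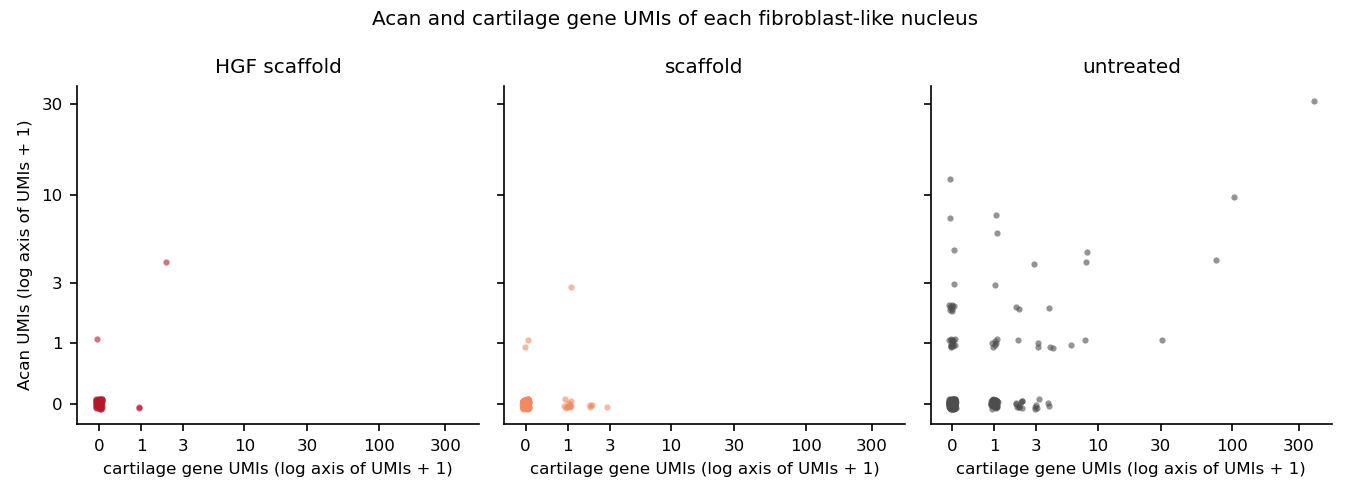
Acan UMIs (vertical axis) against summed cartilage gene UMIs (horizontal axis) of each fibroblast-like nucleus in the HGF scaffold, scaffold and untreated libraries; both axes are log axes of UMIs + 1, points are nuclei and are shifted slightly to show overlaps. The 52 nuclei with Acan in the untreated library include 1 with 31 Acan and 380 cartilage UMIs, and 3 with 5, 7 and 12 Acan UMIs and 0 cartilage UMIs.

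Neuron-like nuclei had the next largest number of Acan UMIs, but that value rested on very few nuclei. They had 0, 6 and 68 UMIs in the HGF scaffold, scaffold and untreated libraries, at 0, 5.13 CPM (1.88 to 11.2) and 49.7 CPM (38.6 to 63.0). In the untreated library 51 of the 68 UMIs came from 1 nucleus of 52118 UMIs, and 11 of 158 nuclei had any. The 11 had a median of 13289 UMIs, against 5206 for the other 147. Of the 11, 6 held a gene of inhibitory neurons, 2 a gene of glutamatergic neurons and 0 a gene of cholinergic neurons. Of the other, shallower 147, 39, 29 and 11 nuclei held such genes. The ratio of scaffold over untreated was 0.103 (0.0366 to 0.237). HGF scaffold over untreated was 0.742 with the 0 set at 3 counts, and its exact interval was 0 to 0.938. Mixed nuclei held 67 of the 68 untreated UMIs, and the neuron-like nuclei that were not mixed had 0, 2 and 1 Acan UMIs, at 0, 6.37 and 2.57 CPM. The lower level in scaffold neuron-like nuclei is thus not seen outside mixed nuclei, where no ratio can be given.

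Named classes other than fibroblast-like and neuron-like had at most 6 Acan UMIs in any library. OPC-like nuclei had 1, 1 and 5 UMIs at 16.2, 3.91 and 11.4 CPM in the HGF scaffold, scaffold and untreated libraries, and endothelial-like nuclei had 2, 1 and 6. Schwann cell-like nuclei had none, which by the same floor allows up to 21.4%, 4.62% and 2.83% of them to hold a UMI in the 3 libraries. A small unnamed cluster led by Pik3c2g, Dcdc5 and Tmem212 had 11 UMIs in 3 of 14 untreated nuclei, at 185 CPM (92.2 to 330). Among classes with at least 20 untreated nuclei, the order of the untreated levels was fibroblast-like, neuron-like, OPC-like and endothelial-like, and the intervals of the last pair overlapped.

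Bcan had its highest levels in astrocyte-like and OPC-like nuclei and did not differ by 2-fold over all nuclei. Over all nuclei it had 86, 299 and 357 UMIs, at 59.3 (47.4 to 73.2), 51.6 (45.9 to 57.8) and 60.0 (54.0 to 66.6) CPM in the HGF scaffold, scaffold and untreated libraries. The 3 intervals overlapped. In astrocyte-like nuclei Bcan was at 1075 (614 to 1745.7), 366 (290 to 455) and 425 (343 to 521) CPM; the HGF scaffold value rested on 16 UMIs in 19 nuclei, fewer than the 20 nuclei set for a ratio. A Bcan UMI was found in 36.8%, 35.1% and 33.8% of astrocyte-like nuclei, whose median depths were 642, 774.5 and 888 UMIs, and the shares expected at 500 UMIs were 31.0%, 20.3% and 18.7%.

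OPC-like nuclei had more Bcan in the HGF scaffold library than in the other two. The levels were 566 CPM (394 to 788; 35 UMIs), 223 CPM (169 to 289; 57 UMIs) and 221 CPM (179 to 269; 97 UMIs) in the HGF scaffold, scaffold and untreated libraries. The first interval lay above the others, and the scaffold and untreated values were nearly equal. HGF scaffold over scaffold was 2.54 (1.62 to 3.94) and HGF scaffold over untreated was 2.57 (1.69 to 3.81). A Bcan UMI was found in 47.5%, 32.3% and 35.9% of OPC-like nuclei, whose median depths were 1115.5, 2005.5 and 2291 UMIs, and the shares expected at 500 UMIs were 24.9%, 11.7% and 12.1%. In the Alpk3-led myeloid-like cluster, with medians of 718, 1000 and 757.5 UMIs, the shares at 500 UMIs were 3.66%, 0.92% and 1.45%. The call depended on the mixed nuclei: without them the levels were 625, 333 and 345 CPM, and the log2 ratios were 0.91 against scaffold and 0.86 against untreated, both short of 2-fold. Mixed nuclei held 17.1%, 49.5% and 60.5% of the UMIs of OPC-like nuclei, from 3, 26 and 45 nuclei.

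Bcan in neuron-like nuclei was at 49.2, 52.1 and 50.4 CPM in the HGF scaffold, scaffold and untreated libraries, from 4, 61 and 69 UMIs, with overlapping intervals. Myeloid-like nuclei had 26.8, 13.0 and 25.7 CPM, from 9, 9 and 5 UMIs. No nucleus held more than 8 Bcan UMIs.

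Ncan was led by astrocyte-like nuclei. In those nuclei it had 2, 64 and 69 UMIs, at 134 (16.3 to 485), 293 (225 to 374) and 316 (245 to 399) CPM in the HGF scaffold, scaffold and untreated libraries. The scaffold and untreated intervals overlapped, with a ratio of 0.927 (0.649 to 1.32). Neuron-like nuclei had 49.2, 41.9 and 34.3 CPM, with scaffold over untreated at 1.22 (0.801 to 1.86). OPC-like nuclei had 16.2, 46.9 and 40.9 CPM, above neuron-like nuclei in the scaffold and untreated libraries. The intervals of the neuron-like and OPC-like levels overlapped in each library. Fibroblast-like, oligodendrocyte-like, endothelial-like and myeloid-like nuclei held at most 14.9 CPM in any library, and the 135 CPM of scaffold T or NK cell-like nuclei came from 8 UMIs in 1 nucleus.

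Over all nuclei the Ncan levels were 25.5, 28.7 and 30.3 CPM in the HGF scaffold, scaffold and untreated libraries. In the HGF scaffold library 25 of the 37 UMIs (67.6%) came from 1 mixed nucleus of 4955 UMIs in the unnamed cluster led by Pik3c2g. Without that nucleus the HGF scaffold level was 8.30 CPM. The log2 ratios without the nucleus with the most Ncan UMIs in each library were -1.63 for HGF scaffold over scaffold and -1.75 for HGF scaffold over untreated, in place of -0.17 and -0.25. Astrocyte-like nuclei were 19 of 906 nuclei in the HGF scaffold library, against 154 of 2168 and 154 of 2248 in the scaffold and untreated libraries.

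Vcan was found in every class with at least 20 nuclei and was highest in OPC-like and fibroblast-like nuclei. Over all nuclei it had 747, 2128 and 2962 UMIs in the HGF scaffold, scaffold and untreated libraries, at 515 (479 to 553), 367 (352 to 383) and 498 (480 to 516) CPM. The scaffold library was the low one. Relative to untreated the scaffold ratio was 0.738 (0.697 to 0.780), HGF scaffold over scaffold was 1.40 (1.29 to 1.52) and HGF scaffold over untreated was 1.03 (0.953 to 1.12), all within 2-fold. OPC-like nuclei had 1439.9, 977 and 1171.3 CPM, and fibroblast-like nuclei 1404.4, 904 and 1404.0 CPM. The intervals of these 2 classes overlapped in the HGF scaffold and scaffold libraries, and in the untreated library the fibroblast-like interval (1328.7 to 1482.4) lay above the OPC-like interval (1072.3 to 1277). Schwann cell-like nuclei had 556, 336 and 414 CPM.

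The scaffold library was also the lowest of the 3 for Vcan within OPC-like, fibroblast-like and endothelial-like nuclei. HGF scaffold over scaffold was 1.47 (1.14 to 1.88) in OPC-like, 1.55 (1.29 to 1.87) in fibroblast-like and 1.78 (1.29 to 2.45) in endothelial-like nuclei. Scaffold over untreated was 0.834 (0.714 to 0.972), 0.644 (0.563 to 0.735) and 0.655 (0.507 to 0.840) in the same classes. None passed 2-fold, although each interval lay clear of 1. In endothelial-like nuclei mixed nuclei held 72.4%, 80.5% and 83.6% of the Vcan UMIs in the HGF scaffold, scaffold and untreated libraries. Outside them the endothelial-like levels were 299, 197 and 218 CPM, and the log2 ratio of scaffold over untreated was -0.15 in place of -0.61. With a marker score the endothelial-like log2 ratio of HGF scaffold over scaffold was -0.16 in place of 0.83. The fibroblast-like log2 ratio of scaffold over untreated reached 2-fold with finer clusters, at -1.10, and with each library clustered alone, at -1.20, in place of -0.63. The finer clusters gave 131 fibroblast-like nuclei in place of 494, and left Col2a1-led clusters of 170 and 135 nuclei unnamed. When each library was clustered alone, the log2 ratio of HGF scaffold over scaffold in fibroblast-like nuclei was -0.77 in place of 0.64, and that of HGF scaffold over untreated was -1.97 in place of 0.00, so both depended on which nuclei were counted as fibroblast-like. In oligodendrocyte-like nuclei the scaffold library was the highest, at 173, 232 and 157 CPM in the HGF scaffold, scaffold and untreated libraries, with scaffold over untreated at 1.48 (1.09 to 2.02). Neuron-like nuclei had 148, 243 and 244 CPM, and 308 of the 334 untreated UMIs were in mixed nuclei. Outside mixed nuclei the neuron-like levels were 41, 147 and 66.8 CPM, and the log2 ratio of scaffold over untreated was 1.13 in place of -0.01.

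Vcan UMIs were also found in immune classes. No class with at least 20 nuclei lacked Vcan, so there was no background share to set these levels against. The myeloid-like nuclei had 303, 371 and 231 CPM in the HGF scaffold, scaffold and untreated libraries, and an unnamed cluster led by Lyz2, Spp1 and Ctsz had 684, 411 and 384 CPM. Neutrophil-like nuclei had 623 CPM (484 to 790) and 360 CPM (325 to 397) in the HGF scaffold and scaffold libraries, and the untreated library held 1 such nucleus. Scaffold over untreated in myeloid-like nuclei was 1.60 (1.16 to 2.25), but it set mostly the Arg1-led cluster of the scaffold library against mostly the Alpk3-led cluster of the untreated library. Within a library, the Arg1-led cluster over the Alpk3-led cluster was 3.10 (1.03 to 15.3), 2.93 (1.81 to 5.02) and 0.835 (0.166 to 2.61). The Arg1-led value of the untreated library rested on 3 UMIs in 15 nuclei. Within the Alpk3-led cluster alone Vcan was at 104, 144 and 234 CPM in the HGF scaffold, scaffold and untreated libraries. These values came from 3, 18 and 42 UMIs. The scaffold level was thus below the untreated level in that cluster, with overlapping intervals. Within the Arg1-led cluster Vcan was at 322, 421 and 196 CPM.

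Ptprz1 was highest in OPC-like nuclei in each library and differed little there. It had 67, 224 and 447 UMIs, at 1084 (840 to 1376.6), 875 (764 to 998) and 1016.7 (925 to 1115.4) CPM in the HGF scaffold, scaffold and untreated libraries. The 3 intervals overlapped. A UMI was found in 60.0%, 61.5% and 70.2% of OPC-like nuclei, and the shares expected at 500 UMIs were 39.6%, 35.1% and 38.7%, against 2.45%, 1.75% and 4.50% in the Alpk3-led myeloid-like cluster. Astrocyte-like nuclei had 470, 416 and 380 CPM and Schwann cell-like nuclei had 973, 285 and 321 CPM, the HGF scaffold value from 14 UMIs in 3 of 14 nuclei. The astrocyte-like and Schwann cell-like intervals overlapped in each library.

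Schwann cell-like nuclei fell into 2 clusters that differed in Ptprz1. In a cluster led by Scn7a, Slc35f1 and Ntng1 the level was 1330.3, 466 and 616 CPM, and in a cluster led by Prx, Pmp22 and Frmd3, genes of myelinating Schwann cells, it was 0, 0 and 34.4 CPM. The ratio of the Scn7a-led over the Prx-led cluster in the untreated library was 17.9 (5.79 to 89.5), from 52 and 3 UMIs, and 44.2 (7.48 to 1789.5) without the top nucleus of both clusters, from 39 and 1 UMIs. For Vcan this ratio was 5.63 (2.93 to 11.9) in the untreated library and 0.674 (0.320 to 1.43) in the scaffold library. Of the 60 untreated Vcan UMIs in the Scn7a-led cluster 31 came from 1 nucleus. Without it that level was 381 CPM in place of 711 CPM, against 126 CPM in the Prx-led cluster, and without the top nucleus of both clusters the ratio was 4.50 (1.93 to 12.2).

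Ptprz1 had a higher level in fibroblast-like nuclei of the scaffold library than of the untreated library, but was found in similar shares of them. A UMI was found in 15.6%, 23.3% and 21.9% of fibroblast-like nuclei of the HGF scaffold, scaffold and untreated libraries. The shares expected at 500 UMIs were 6.94%, 7.59% and 6.73%. The levels were 130 (76.8 to 205), 241 (189 to 304) and 109 (88.8 to 132) CPM in the HGF scaffold, scaffold and untreated libraries, and only the scaffold interval stood apart from the untreated one. The scaffold over untreated ratio was 2.21 (1.61 to 3.02), and HGF scaffold over scaffold, at 0.538 (0.302 to 0.911), was within 2-fold. The log2 ratio of HGF scaffold over scaffold was -0.90, but -0.10 with finer clusters and -2.48 with each library clustered alone. Of the 72 scaffold UMIs 16 came from 1 nucleus, and without the top nucleus of each library the log2 ratio of scaffold over untreated was 0.91 in place of 1.15. It was 0.94 with finer clusters and 0.76 with each library clustered alone, so the call of 2-fold was lost in these 3 alternatives while the direction was kept. In neuron-like nuclei Ptprz1 was at 73.8, 150 and 99.3 CPM, with scaffold over untreated at 1.51 (1.20 to 1.91). HGF scaffold over scaffold there was 0.490 (0.178 to 1.09), past 2-fold on 6 UMIs with an interval that includes 1. With a marker score its log2 ratio was -0.30 in place of -1.03. The Alpk3-led cluster, the background above, had 94.9 CPM (55.3 to 152) of Ptprz1 in the untreated library. The untreated fibroblast-like and neuron-like levels thus lay near the background. In the scaffold library that cluster had 32.0 CPM (8.71 to 81.9), and both classes lay above it.

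Ptprz1 in myeloid-like nuclei was lower in both implanted libraries, at 35.7, 21.7 and 87.4 CPM from 12, 15 and 17 UMIs in the HGF scaffold, scaffold and untreated libraries. Scaffold over untreated was 0.248 (0.115 to 0.527) and HGF scaffold over untreated was 0.408 (0.178 to 0.906). These values again set different clusters against each other. Within the Alpk3-led cluster alone the levels were 34.6, 32.0 and 94.9 CPM, from 1, 4 and 17 UMIs. That cluster held all 17 untreated myeloid-like UMIs and also served above as the background for Ptprz1. The myeloid-like difference is therefore one at the level of that background. Over all nuclei Ptprz1 was at 109, 142 and 170 CPM, with HGF scaffold over untreated at 0.639 (0.537 to 0.757) and scaffold over untreated at 0.836 (0.762 to 0.918). When the clusters were given the same weights in both libraries, the log2 ratio of scaffold over untreated was 0.17 in place of -0.26, and that of HGF scaffold over untreated was 0.00 in place of -0.65.

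Cspg4 had few UMIs per nucleus, with 35, 144 and 230 over all nuclei, at 24.1 (16.8 to 33.6), 24.9 (21.0 to 29.3) and 38.7 (33.8 to 44.0) CPM in the HGF scaffold, scaffold and untreated libraries. OPC-like nuclei had 162 (77.6 to 298), 102 (66.4 to 149) and 114 (84.4 to 150) CPM, with overlapping intervals. Among named classes with at least 20 nuclei no level was higher, but scaffold Schwann cell-like nuclei had the same 102 CPM. Mural-like nuclei, a class of pericytes and vascular smooth muscle, were at 281 (34.1 to 1016.6), 150 (60.3 to 309) and 93.5 (11.3 to 338) CPM. The first 2 values lay above those of OPC-like nuclei, with overlapping intervals. They rest on 2, 7 and 2 UMIs in only 4, 16 and 14 mural-like nuclei. Schwann cell-like nuclei had 69.5, 102 and 52.5 CPM. In fibroblast-like nuclei the levels were 14.4 CPM (2 UMIs), 46.9 CPM (14 UMIs) and 56.1 CPM (52 UMIs), and HGF scaffold over untreated was 0.257 (0.0303 to 0.975). That call was lost without mixed nuclei, with a log2 ratio of -0.96 in place of -1.96, and with each library clustered alone, with -0.62. In neuron-like nuclei Cspg4 was at 0, 13.7 and 29.2 CPM, and scaffold over untreated was 0.468 (0.245 to 0.855). Of the 40 untreated neuron-like UMIs 35 were in mixed nuclei, 9 of them in the nucleus with 51 Acan UMIs. Outside mixed nuclei the levels were 0, 9.56 and 12.8 CPM, from 0, 3 and 5 UMIs, too few for a call. Without nuclei that held at least 2 cartilage genes the log2 ratio was -0.90 in place of -1.10.

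Cspg5 had few counts and did not differ beyond counting error in any comparison. It had 7, 48 and 52 UMIs over all nuclei, at 4.83 (1.94 to 9.94), 8.29 (6.11 to 11) and 8.74 (6.53 to 11.5) CPM in the HGF scaffold, scaffold and untreated libraries. OPC-like nuclei had 16.2, 23.4 and 27.3 CPM and neuron-like nuclei 24.6, 12 and 13.1 CPM, from at most 18 UMIs each. No nucleus held more than 2 Cspg5 UMIs, and Schwann cell-like nuclei had none in any library. Its scaffold over untreated ratio was 0.948 (0.627 to 1.43) over all nuclei and 0.910 (0.419 to 1.94) in neuron-like nuclei.

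Several core protein genes were often found in the same OPC-like nucleus. A UMI of at least 2 of the 7 genes was found in 72.5%, 69.8% and 82.4% of OPC-like nuclei of the HGF scaffold, scaffold and untreated libraries, against 8.50%, 16.9% and 20.4% of all nuclei. OPC-like nuclei were also deeper, with medians of 1115.5, 2005.5 and 2291 UMIs against 1047, 1639 and 1407.5 for all nuclei, and these shares are not thinned. The 7 genes together made up 3300.4, 2250.3 and 2601.9 CPM of OPC-like RNA and 744, 626 and 849 CPM of all RNA. An unnamed cluster led by Dpysl5 and Chst8 had far less of these genes than OPC-like nuclei. Its 10 leading genes included Enpp6, which marks newly forming oligodendrocytes, and its 100 leading genes included the oligodendrocyte markers Mag, Mbp and Mobp. Enpp6 was also among the 100 leading genes of the OPC-like cluster, which had Bcas1, another gene of that stage, among its top 10. The Vcan of the Dpysl5-led cluster was at 101, 134 and 69.9 CPM, and the ratio over OPC-like nuclei was 0.0700 (0.0187 to 0.186), 0.137 (0.0811 to 0.218) and 0.0596 (0.0338 to 0.0978). Its Ptprz1 was at 0, 35.2 and 30.6 CPM, with ratios of 0.0402 (0.0129 to 0.0953) in the scaffold and 0.0301 (0.0120 to 0.0625) in the untreated library. Bcan there was at 0, 42.2 and 17.5 CPM, with ratios of 0.190 and 0.0792 in the scaffold and untreated libraries, and Cspg4 was at 0, 7.04 and 17.5 CPM. In the HGF scaffold library, with 0 UMIs in this cluster, the upper limits of the ratio were 0.0881 for Ptprz1 and 0.173 for Bcan. Without the top nucleus of both clusters the ratio was 0.0258 for Ptprz1 in the scaffold library and 0.0424 for Bcan in the untreated library. Vcan, Ptprz1 and Bcan were thus lower in this cluster in all 3 libraries.

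**Figure D3:**
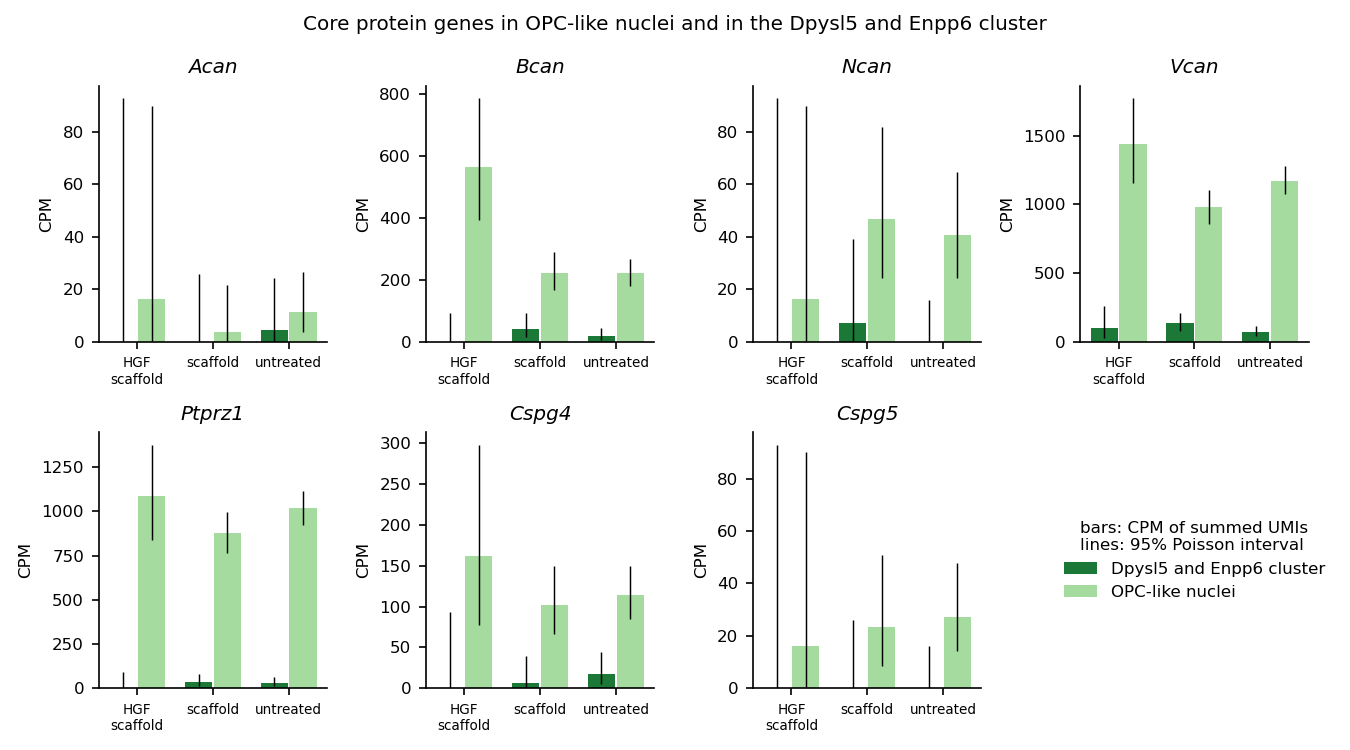
Level (CPM, vertical axis, scaled separately for each gene) of the 7 genes in the unnamed cluster led by Dpysl5 and holding Enpp6 (dark bars) and in OPC-like nuclei (light bars) for the HGF scaffold, scaffold and untreated libraries; lines are 95% Poisson intervals. Vcan was at most 134 CPM in the dark bars and at least 977 CPM in the light bars.

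Across 25 sums of a class in a library with at least 20 nuclei, the gene pairs with the most alike levels were Ptprz1 and Cspg4 (Pearson r = 0.78 of log2(CPM + 10)), Bcan and Ptprz1 (r = 0.75) and Bcan and Ncan (r = 0.69). Acan was most like Vcan (r = 0.55) and had r = -0.15 with Ncan. The sums of a library share their depth and preparation, so these values are descriptions. By the same measure the other genes most like each member were Aspn (0.80), Vipr2 (0.77) and C1qtnf3 (0.75) for Acan, and Chst9 (0.85), Apba2 (0.85) and C1ql1 (0.83) for Bcan. For Ncan they were Slc1a2 (0.84), the astrocyte glutamate transporter, Scg3 (0.81) and Ccdc148 (0.80). For Vcan they were Col5a3 (0.82), Dpysl3 (0.81) and Pdgfra (0.79), a receptor of OPC and fibroblasts. For Ptprz1 they were Stk32a (0.86), Mtss1l (0.86) and Sox6 (0.85), for Cspg4 Sox6 (0.80), Vps37b (0.79) and Fnta (0.79), and for Cspg5 Gria4 (0.83), Dscam (0.82) and Dpp10 (0.81).

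**Figure D4:**
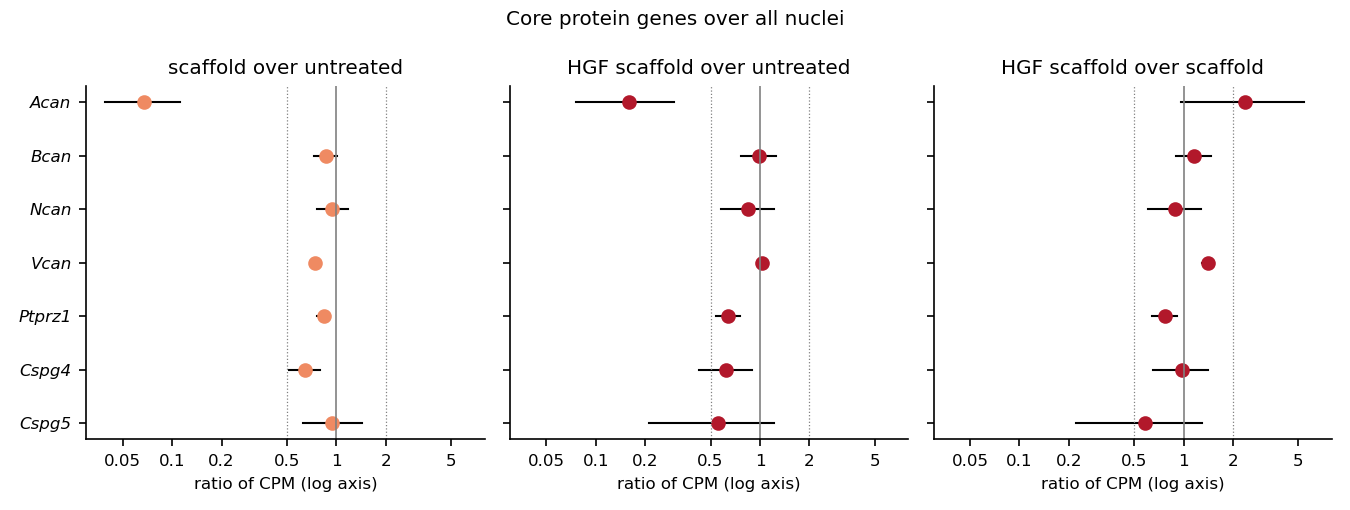
Ratio of CPM over all nuclei (horizontal log axis) of the 7 genes for scaffold over untreated, HGF scaffold over untreated and HGF scaffold over scaffold; points are ratios, lines 95% intervals of counting error, and dotted lines mark 2-fold. Acan lay at 0.0679, 0.160 and 2.35, and the other 6 genes lay within 2-fold in all 3 panels.

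A difference was called when it was at least 2-fold with at least 20 UMIs in the 2 libraries together. Over all nuclei, 1 of the 7 genes was called in scaffold over untreated (Acan, lower), where 11.1% of all genes with enough UMIs were called in either direction, 7.13% higher and 3.97% lower. In HGF scaffold over untreated 1 of 7 was called (Acan, lower), against 20.8% of all genes, 9.27% higher and 11.6% lower. In HGF scaffold over scaffold 1 of 7 was called (Acan, higher, on 10 and 17 UMIs), against 7.63% of all genes, 2.16% higher and 5.46% lower. A count of 1 of 7 is the smallest above 0, and nothing is read from it about the 7 genes as a set.

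Within classes with at least 20 nuclei in both libraries, 5 of 31 pairs of gene and class were called in scaffold over untreated, against 14.3% of all such pairs. They were Ptprz1 in fibroblast-like nuclei, higher, and Acan in fibroblast-like and neuron-like, Ptprz1 in myeloid-like and Cspg4 in neuron-like nuclei, lower. In HGF scaffold over scaffold 2 of 19 pairs were called, Bcan in OPC-like nuclei, higher, and Ptprz1 in neuron-like nuclei, lower, against 14.5%. In HGF scaffold over untreated 4 of 23 pairs were called, against 20.5%: Bcan in OPC-like nuclei, higher, and Acan in fibroblast-like, Ptprz1 in myeloid-like and Cspg4 in fibroblast-like nuclei, lower. These shares too are near those of all genes. The 2 comparisons with the untreated library share it, and the 2 with the HGF scaffold library share that one.

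**Figure D5:**
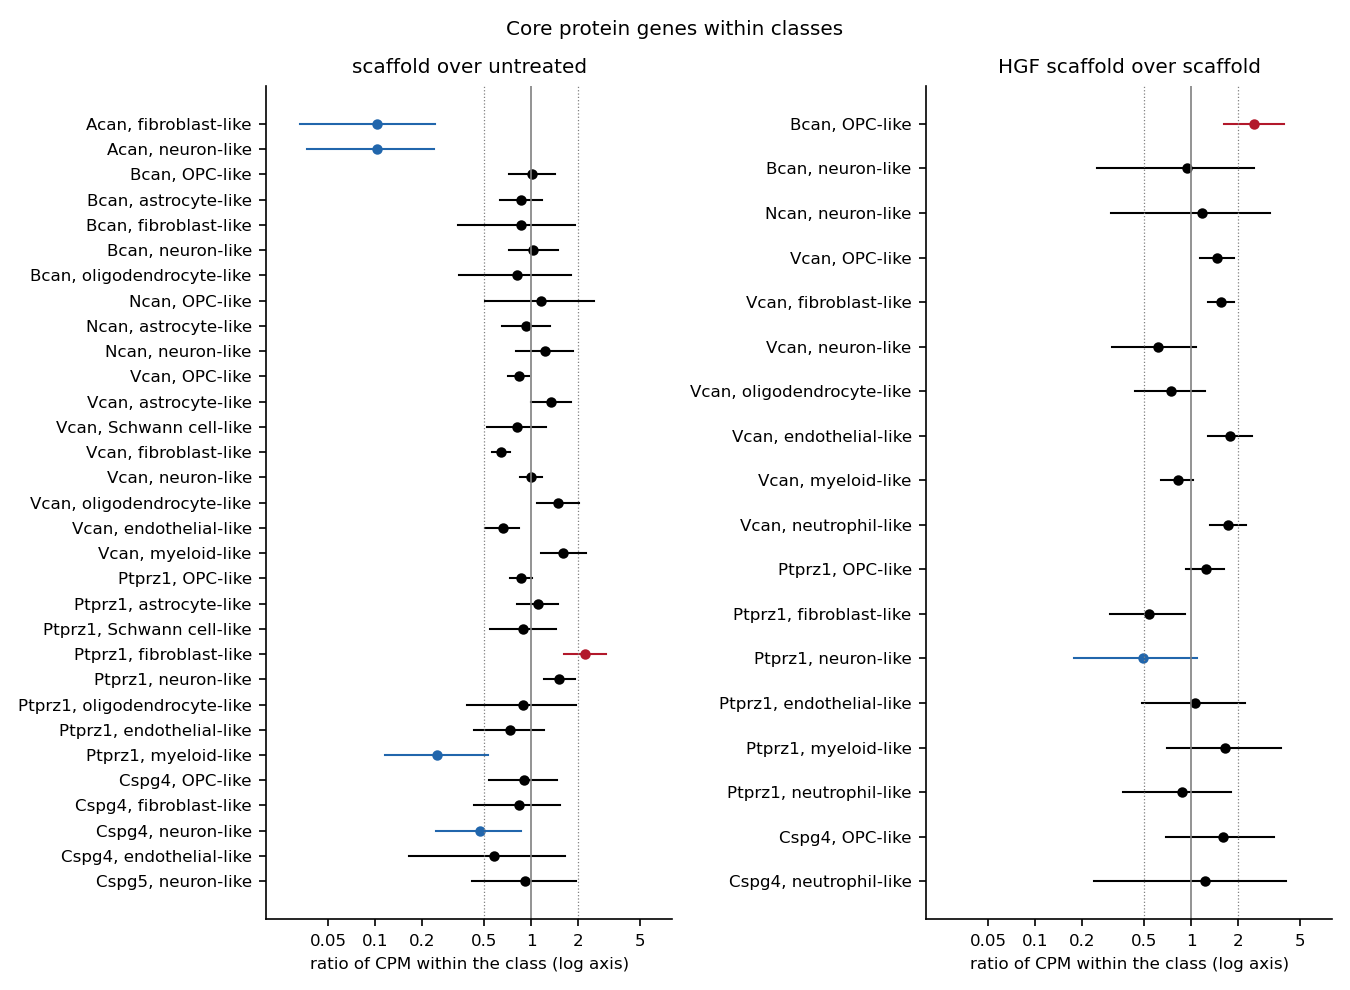
Ratio of CPM within a class (horizontal log axis) for each pair of gene and class with at least 20 UMIs, for scaffold over untreated and HGF scaffold over scaffold; lines are 95% intervals of counting error, dotted lines mark 2-fold, red marks pairs called higher and blue pairs called lower. Bcan in neutrophil-like nuclei, with 0 and 28 UMIs in the HGF scaffold and scaffold libraries, has no ratio and is not drawn.

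The partners of the lecticans in the hyaluronan network included genes past 2-fold in each comparison. Of 10 such genes with at least 20 UMIs in scaffold over untreated over all nuclei, 1 was at least 2-fold higher and 2 lower, where 7.13% of all genes were higher and 3.97% lower, with a median log2 ratio of -0.14 against 0.04 for all genes. In HGF scaffold over scaffold 1 of 9 was higher and 1 lower, against 2.16% and 5.46% of all genes (median 0.10 against 0.02). In HGF scaffold over untreated 1 of 10 was higher and 4 lower, against 9.27% and 11.6% of all genes (median -0.51 against 0.07). These shares and medians of all genes are the same for each list below. Hapln1 was at 0, 1.55 and 10.4 CPM in the HGF scaffold, scaffold and untreated libraries, with scaffold over untreated at 0.149 (0.0651 to 0.302). Tnc, tenascin-C, was at 115, 52.3 and 299 CPM, with scaffold over untreated at 0.175 (0.154 to 0.198), HGF scaffold over scaffold at 2.20 (1.81 to 2.67) and HGF scaffold over untreated at 0.385 (0.326 to 0.451). Fibroblast-like nuclei held 114 of 167, 73 of 303 and 1173 of 1780 Tnc UMIs, at 821, 244 and 1265.9 CPM. Cd44, a hyaluronan receptor, was higher in the implanted libraries, at 451, 369 and 110 CPM, with scaffold over untreated at 3.35 (3.07 to 3.67). The myeloid-like nuclei had 734, 730 and 159 CPM of it. These myeloid-like values set mostly the Arg1-led cluster of the implanted libraries against mostly the Alpk3-led cluster of the untreated library. The part of this make-up in the Cd44 levels was not tested.

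Receptors for chondroitin sulfate and their partners were seldom past 2-fold. Of 6 with enough UMIs, none was called in scaffold over untreated (median log2 ratio -0.50) or in HGF scaffold over untreated (-0.33), and 1, Lingo1, a co-receptor of axon growth inhibition, was higher in HGF scaffold over scaffold (-0.14). Lingo1 was at 5.51, 2.07 and 3.03 CPM, from only 8, 12 and 18 UMIs. It was named although it did not meet the rule of an interval clear of 1. Ptprs, the receptor phosphatase sigma, was at 139, 147 and 222 CPM in the HGF scaffold, scaffold and untreated libraries, and Ptprf, its relative, at 37.2, 49.9 and 74.1 CPM. In neuron-like nuclei Ptprs was at 590, 354 and 439 CPM.

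Of the 8 genes for Ptprz1 ligands, 1 was lower in scaffold over untreated (median -0.62), 1 was higher and 2 were lower in HGF scaffold over scaffold (-0.57), and 7 were lower in HGF scaffold over untreated (-1.19 against 0.07 for all genes). Ptn, which encodes the growth factor pleiotrophin, was at 143, 203 and 338 CPM in the HGF scaffold, scaffold and untreated libraries, and Cntn2, a contactin of axons, at 30.3, 68.0 and 86.4 CPM. L1cam, an adhesion molecule of axons, was at 4.14 CPM in the HGF scaffold library and 16.3 CPM in the untreated library, a ratio of 0.254 (0.0908 to 0.572). Within neuron-like nuclei L1cam was at 36.9 CPM in the HGF scaffold library and 36.5 CPM in the untreated library, from 3 and 50 UMIs. Ptn was lower there, at 61.5 against 139 CPM, and so was Cntn2, at 61.5 against 110 CPM. Each HGF scaffold value of these 2 genes came from 5 UMIs. Neuron-like nuclei were 33 of 906 in the HGF scaffold library and 158 of 2248 in the untreated library. Their part in the sums over all nuclei was not tested.

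Among 13 genes for proteases that cleave lecticans and their inhibitors, 3 were higher and none lower both in scaffold over untreated and in HGF scaffold over scaffold, and 4 were higher in HGF scaffold over untreated. Of all genes, 7.13%, 2.16% and 9.27% were higher in these 3 comparisons. The 3 were the matrix metalloproteinases Mmp9, at 49.6, 20.9 and 6.22 CPM, Mmp3, at 42.7, 19.5 and 7.06 CPM, and Mmp13, at 156, 68.4 and 27.2 CPM, in the HGF scaffold, scaffold and untreated libraries. The unnamed cluster led by Lyz2, whose 10 leading genes include Mmp13 and Mmp9, held 127, 156 and 30 nuclei, and its part in these sums was not tested. Mmp14 was also higher, at 202 CPM in the HGF scaffold library and 98.4 CPM in the untreated library. The median log2 ratios of the list were near those of all genes, at 0.02, 0.24 and 0.16 for scaffold over untreated, HGF scaffold over scaffold and HGF scaffold over untreated.

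Genes that build or break down chondroitin sulfate chains showed no common direction. In scaffold over untreated 2 of 19 were higher and 3 lower (median -0.11), in HGF scaffold over scaffold none of 17 was called (0.04), and in HGF scaffold over untreated 3 of 18 were higher and 1 lower (-0.10). Galns, a lysosomal sulfatase that acts on chondroitin 6-sulfate, was at 61.3, 59.6 and 26.2 CPM in the HGF scaffold, scaffold and untreated libraries, and Chst12, a chondroitin 4-sulfotransferase, at 13.1, 8.63 and 3.03 CPM. Csgalnact1, which starts the chain, was at 44.5 CPM in the scaffold library and 91.1 CPM in the untreated library, a ratio of 0.489 (0.420 to 0.568). Dse, the epimerase that makes dermatan sulfate, was at 326 CPM in the HGF scaffold library and 155 CPM in the untreated library, a ratio of 2.11 (1.88 to 2.36).

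Other core proteins that can carry chondroitin sulfate included some of the larger differences. Of 16, 3 were higher and 1 lower in scaffold over untreated (median -0.41), 1 was lower in HGF scaffold over scaffold (0.12), and 3 were higher and 3 lower in HGF scaffold over untreated (-0.52). Sdc1, a syndecan, was at 114, 87.2 and 16.0 CPM in the HGF scaffold, scaffold and untreated libraries, and Srgn, the proteoglycan of blood cell granules, at 97.9, 73.4 and 20.8 CPM. Bgn, biglycan, was at 90.6 CPM in the scaffold library and 198 CPM in the untreated library, a ratio of 0.458 (0.412 to 0.508). Spock3, a testican, was at 93.7 CPM in the HGF scaffold library and 329 CPM in the untreated library, a ratio of 0.285 (0.238 to 0.340).

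Most cartilage genes were lower in both implanted libraries than in the untreated library. In scaffold over untreated 5 of 8 were lower and none higher over all nuclei, where 3.97% of all genes were lower (median -3.08), and 6 of 6 were lower in fibroblast-like nuclei (median -3.01 against 0.02 for all genes, of which 8.53% were lower in that class). For HGF scaffold over untreated 5 of 8 were lower, against 11.6% of all genes (median -1.80), and in HGF scaffold over scaffold 1 of 4 was higher (-0.16). Col2a1 was at 1.38, 1.38 and 43.4 CPM in the HGF scaffold, scaffold and untreated libraries, Col9a1 at 0.689, 0.863 and 17.8 CPM, and Comp at 2.76, 4.83 and 41.7 CPM. As given above, 380 of the 1308 untreated UMIs of this list came from 1 nucleus, so the size of these ratios rests on few nuclei.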

How the data were processed

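The deposited values are whole-number UMI counts per gene and nucleus in 3 matrices, 1 per library, for which the submitters' processing notes name Cell Ranger 6.0.1; the genome build is not given in the sources used here. Nuclei were prepared with a nucleus isolation kit and captured on 10x Genomics 3′ gel beads, per the labels. Nuclei with under 200 genes or over 5% mitochondrial UMIs were left out. All nuclei were clustered in 1 run with scanpy 1.11.5 and no batch integration (10000 counts per nucleus, log scale, 2000 variable genes with the 7 genes removed, 30 components, 15 neighbours, Leiden resolution 1). A cluster was named from its 100 leading genes if it had at least 3 markers of a class, at least 1 of them in its top 10; the need for a top 10 marker was added after seeing the data. Of 233 marker entries 214 were in the files, and of 98 pathway list entries 92. Lists hold 4 genes (Tnc, Tnr, Cd44 and Col9a2) more than once. The 7 genes and all lists were chosen with earlier results of these data known.

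UMIs were summed per class and library and given as CPM with exact Poisson intervals; ratios have exact conditional Clopper-Pearson intervals. A class entered a ratio with at least 20 nuclei in both libraries, and a count of 0 was set at 3 counts per library and class, which gives a bound. All nuclei held at least 500 UMIs, so thinned shares leave out no nucleus. Scrublet called 2 of 5322 nuclei (0.0376%) and was not used to remove any. Mixed nuclei stand in for it as an alternative, which also leaves out deep nuclei. From each pathway list, genes at least 2-fold different over all nuclei with an interval clear of 1 were named, at most 4 per list and comparison, with Ptprs, Ptprf and Lingo1 added after their values were seen. For likeness, 3 genes with at least 200 UMIs were named per member.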

Additional observations from a re-analysis of the deposited data

Results flagged for a closer look

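In scaffold over untreated, the ratio of Vcan lay clear of 1 on opposite sides in different classes. It was 0.834 in OPC-like, 0.644 in fibroblast-like and 0.655 in endothelial-like nuclei, and 1.48 in oligodendrocyte-like and 1.60 in myeloid-like nuclei. The ratio of Ptprz1 was likewise 2.21 in fibroblast-like and 1.51 in neuron-like nuclei and 0.248 in myeloid-like nuclei. With 1 library per group the difference between classes was not tested, the intervals cover counting error only, and both myeloid-like values compare different clusters. Within the Alpk3-led cluster alone Vcan was lower in the scaffold library, at 144 CPM against 234 CPM in the untreated library, with overlapping intervals. Within the Arg1-led cluster it was at 421 and 196 CPM, the latter from 3 UMIs. All untreated myeloid-like Ptprz1 UMIs were in the Alpk3-led cluster, which served as the background for that gene. The untreated Ptprz1 levels of fibroblast-like and neuron-like nuclei, at 109 and 99.3 CPM, lay near the 94.9 CPM of that background. Outside mixed nuclei the log2 ratio of Vcan in endothelial-like nuclei was -0.15 in place of -0.61.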

How the results depend on the processing

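No paired analysis was possible because each group has 1 library. Of 622 log2 ratios recomputed under the alternatives, 557 stayed within the counting interval of the reported ratio, 64 moved outside it, and the remaining 1 is given below. Counting also ratios that were not called, 84 had the other sign, 23 of them outside that interval. Of called ratios, 1 changed sign: Acan over all nuclei, HGF scaffold over scaffold, was -0.08 with equal weight per nucleus, in place of 1.23. Of 66 counts of called differences, 40 stayed within 1.5 times. The cause of the shifts was not tested beyond how each alternative is made.

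Over all nuclei, HGF scaffold over scaffold had 1 call, and 2 with equal weight per nucleus, 0 with the cluster make-up standardised, 0 with a minimum of 50 UMIs, 2 at 1.5-fold, 0 at 3-fold, and 2 without the nucleus with the most UMIs of the gene. Scaffold over untreated had 1, and 2 at 1.5-fold. HGF scaffold over untreated had 1, 4 at 1.5-fold, and 3 without that nucleus.

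Within classes, HGF scaffold over scaffold had 2 calls. It had 5 at Leiden resolution 2, 6 with each library clustered alone, 8 with a marker score per nucleus, 1 with the median of all genes set to 1, 11 with no minimum of UMIs, 9 at 1.5-fold, 0 at 3-fold, 6 without the top nucleus, and 5 with clusters named without a top 10 marker. Scaffold over untreated had 5, and 8 with a marker score, 12 with no minimum, 10 at 1.5-fold and 3 at 3-fold. HGF scaffold over untreated had 4, and 7 clustered alone, 9 with a marker score, 7 at 1.5-fold and 2 at 3-fold. The alternatives without the top nucleus, without nuclei holding 2 cartilage genes and without the top 10 rule were chosen after seeing the data. The HGF scaffold library was the shallowest, with 1450757 UMIs.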
